A study of Mus musculus with 20 samples.

Results

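Keratins of luminal and basal epithelium were followed in tumor cells of a mouse model of prostate cancer bone metastasis. The 10 genes are the luminal keratins Krt8, Krt18, Krt19 and Krt7, the mucosal keratin Krt4, and the basal and stress keratins Krt5, Krt14, Krt15, Krt17 and Krt6a. They were chosen by name from the 17104 genes listed in the deposited tables. The choice also used measured values, because Krt6a was picked as a gene whose level is lower in resistant than in naive tumors. The levels of Krt6a in those 2 groups are therefore given as a description, with no p-value, and its call in the fit across all genes restates the choice.

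The tumor cells were MycCaP-Bo, a bone-homing line selected in vivo from MycCaP, a prostate cancer line from mice with a Myc transgene in the prostate, and labelled with luciferase and the fluorescent protein iRFP. All groups carry this same line, so the libraries differ in host mice and treatment but not in the origin of the tumor. Cells were injected into the heart of mice 4 to 6 weeks old, and CD45- iRFP+ cells were sorted from lesions of the hind legs, with 3 mice pooled in each of the 20 mRNA libraries. The 4 groups hold 5 libraries each. Naive tumors received vehicle. Resist tumors received enzalutamide, an androgen receptor antagonist, at 30 mg/kg daily for 18 days. Resist-Mac tumors received the same enzalutamide and, in the last 4 days, liposomal clodronate, which depletes macrophages, at 1 mg per mouse given 2 times per week. Naive-Mac tumors received vehicle and the same clodronate. P-values measure the spread between these pools of mice.

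Keratins are the intermediate filament proteins of epithelia. A filament is built from pairs of 1 type I and 1 type II chain, so cells make keratins in matched sets. In the prostate, luminal cells carry the simple-epithelial set Krt8 and Krt18, with Krt19 and Krt7 more prominent in the proximal ducts, while basal cells carry Krt5 and Krt14 and often Krt15. Krt6a, Krt16 and Krt17 are stress keratins, switched on in wounded or hyperproliferative epithelium, and Krt4 belongs to moist stratified epithelia and to a luminal population near the urethra.

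Levels are FPKM, which divides the fragments of a gene by its length and by the size of the library, so that levels of different genes can be compared. Naive and Resist libraries share 1 table and batch, while Resist-Mac and Naive-Mac libraries each have a table and batch of their own. Only Resist vs. Naive was tested, with limma on log2(FPKM + 1), and calls required a Benjamini-Hochberg adjusted p below 0.05 together with a change of more than 1.5-fold. Across tables the condition, the batch and the normalization cannot be told apart, and the levels stand side by side without a test. The tables do not scale all genes alike: Rpl3, a ribosomal protein gene that cells use everywhere, averaged 1.498 FPKM in Naive and 1.04 in Resist but 1737 in Resist-Mac and 2973 in Naive-Mac tumors. A gene listed at or near 0 is for this reason called only that. FPKM was above 0 for 12087 to 14056 genes per library, and the depth in reads is unknown. Of 10 epithelial label genes, 6 averaged at least 1 FPKM in each group, led by Cldn3 at 363 ± 37.6 in Naive and 254 ± 39.5 in Resist (SD, n = 5), while Cldn7 was listed at 0 in every Naive and Resist library. Cdh1 averaged 0.01 FPKM in Naive, 0.04 in Resist, 0.08 in Resist-Mac and 0 in Naive-Mac tumors. Epcam averaged 0.01 FPKM in Naive-Mac tumors and had no value in the other groups. Esrp1 averaged 0.03 FPKM in Resist-Mac and 0 in Naive-Mac tumors and had no value in Naive and Resist tumors. Other cells were present in varying amounts: the summed FPKM of 10 neutrophil genes was 176 to 1270 in Naive, 61.5 to 603 in Resist, 406 to 8775 in Resist-Mac and 58.8 to 6159 in Naive-Mac libraries. That of 12 macrophage genes was 18.4 to 114, 3.92 to 61.4, 39.3 to 884 and 5.32 to 540. This sum rests mainly on Lyz2, which averaged 38.1 FPKM in Naive, 21.1 in Resist, 304 in Resist-Mac and 223 in Naive-Mac tumors. Of the 12 genes, 3 averaged at least 1 FPKM in Naive, Resist and Naive-Mac tumors and 6 in Resist-Mac tumors. The sum is therefore not a measure of macrophage content. The part of other cells in the keratin values was not tested.

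Krt7 and, on average, Krt8 stood above every other keratin in all groups. The 10 genes together held 94.2% ± 0.49, 95.1% ± 0.61, 96.2% ± 0.63 and 97.5% ± 0.26 (SD, n = 5) of all keratin FPKM in Naive, Resist, Resist-Mac and Naive-Mac tumors. In Naive tumors the order of mean levels was Krt7, Krt8, Krt6a, Krt15, Krt14, Krt19, Krt17, Krt4, Krt18 and Krt5. Neighbours whose libraries overlapped in that order were Krt6a with Krt15, Krt15 with Krt14, Krt17 with Krt4, and Krt18 with Krt5. In Resist tumors Krt15 stood above Krt6a, Krt4 stood above Krt17, and the libraries of all neighbours overlapped apart from Krt7 with Krt8 and Krt14 with Krt19. The canonical pairs were incomplete in the tables: Krt8 was abundant while Krt18 was listed near 0, and Krt14 was present while Krt5 was listed near 0.

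**Figure D1:**
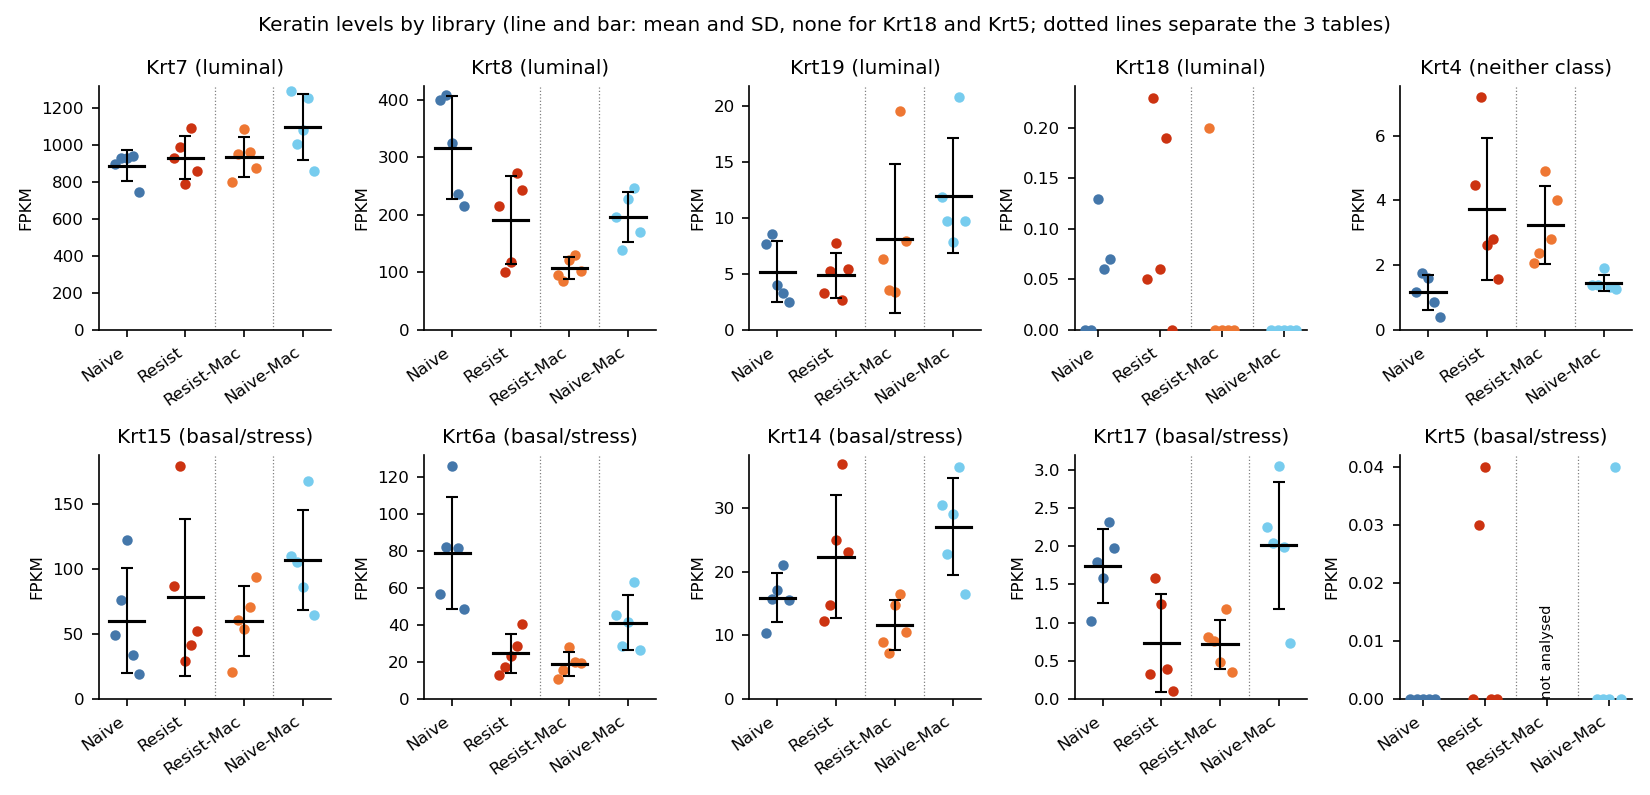
FPKM of each keratin (y axis, linear, own scale per panel) in the 5 libraries of each group, with the group mean as a line and the SD as a bar. Dotted lines separate the 3 tables, which were normalized apart. Krt7 lies between 745 and 1291 FPKM, Krt6a is lower in every Resist library than in every Naive library, and Krt18 and Krt5, shown without mean and SD, are at or near 0.

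Krt7, a type II keratin of ductal epithelium, was the most abundant keratin in all groups. Its level was 899, 930, 930, 937 and 745 FPKM in Naive replicates 1 to 5 and 930, 987, 787, 1092 and 860 in Resist replicates 1 to 5. The groups overlapped widely, and the fifth Naive library was the lowest of all. Krt7 ranked between the 98.8 and 99.6 percentile of the 13850 genes listed in all tables in each library. The means were 888 ± 81.6 FPKM in Naive and 931 ± 117 in Resist tumors (SD, n = 5), a log2 change of 0.06 (SE 0.09, adjusted p = 0.664, limma). Resist-Mac tumors averaged 934 ± 107 and Naive-Mac tumors 1097 ± 178 FPKM. The coefficient of variation within a group was 9.19% to 16.2%, lower in each group than that of the other 7 of the 10 keratins that reached the filter.

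Krt8, the type II keratin of simple and luminal epithelium, was lower on average in Resist than in Naive tumors but did not pass the test. The 5 Naive libraries held 399, 408, 325, 237 and 216 FPKM. The 5 Resist libraries held 216, 101, 118, 272 and 244 FPKM. Replicates 1, 2 and 3 of Resist lay below all Naive libraries, replicate 1 only just, at 216.06 beside 216.29 FPKM, and the other 2 overlapped the lower Naive libraries. The means were 317 ± 89.0 and 190 ± 76.5 FPKM (SD, n = 5), a log2 change of -0.79 (SE 0.28, adjusted p = 0.0678, limma). Without Resist replicate 4 the change was -0.95 (adjusted p = 0.0448) and without Resist replicate 5 it was -0.91 (adjusted p = 0.0404), both past the threshold, so that single libraries decide the call. Under macrophage depletion, Krt8 was 95.3, 84.8, 122, 131 and 102 FPKM in Resist-Mac libraries and 197, 139, 227, 247 and 170 in Naive-Mac libraries. All Resist-Mac libraries lay below all Naive-Mac libraries, as for 11.9% of all genes between these separate batches.

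Krt18, the type I partner of Krt8, was listed at 0 in 12 of 20 libraries and never above 0.23 FPKM. It was 0, 0, 0.13, 0.06 and 0.07 FPKM in Naive libraries and 0.05, 0.23, 0.06, 0.19 and 0 in Resist libraries. Only replicate 1 of Resist-Mac, at 0.20 FPKM, was above 0 in its group, and all Naive-Mac libraries were at 0. Krt18 did not reach the mean of 1 FPKM required for the test. A processed pseudogene, Gm5200, matches Krt18 at 90.2% identity over 1266 bases and was not analysed here. A further one, Krt8-ps, matches Krt8 at 98.6% over 941 bases and was not analysed either, so the Krt8 level is uncertain to the extent that reads were split between the copies.

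Krt19, a type I keratin of simple and ductal epithelium, was low and variable. The Naive libraries held 7.69, 8.55, 4.04, 3.24 and 2.48 FPKM and the Resist libraries 3.24, 5.24, 7.72, 2.70 and 5.45. The groups overlapped across nearly their whole ranges. The means were 5.20 ± 2.74 and 4.87 ± 2.00 FPKM (SD, n = 5), and the log2 change was -0.03 (SE 0.30, adjusted p = 0.952, limma). Resist-Mac libraries ranged from 3.36 to 19.5 FPKM with a median of 6.35, and Naive-Mac libraries from 7.81 to 20.8 with a median of 9.72. Of the luminal keratins, 3 were tested and 0 were called, with a median log2 change of -0.03 beside 0.03 for all 10119 genes tested. At an unadjusted p under 0.05, 1 of the 3 passed, Krt8, beside 34.5% of all genes tested.

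Krt4, a type II keratin of mucosal epithelium, rose in Resist tumors. It was 1.16, 1.75, 1.60, 0.87 and 0.40 FPKM in Naive libraries and 4.48, 7.19, 2.62, 2.82 and 1.56 in Resist libraries. The fifth Resist library lay inside the Naive range and the other 4 lay above it. The mean went from 1.16 ± 0.55 to 3.73 ± 2.20 FPKM (SD, n = 5), which is 3.23-fold on the FPKM scale and a log2 change of 1.06 in FPKM + 1 (SE 0.28, adjusted p = 0.0227, limma). The level is low and the call is close to the threshold: the adjusted p was 0.0540 with no filter on low values, 0.0596 with quantile normalization, and 0.0509, 0.0533 and 0.0503 without Naive replicate 4, Naive replicate 5 or Resist replicate 1. In the macrophage-depleted groups, Resist-Mac libraries held 2.07, 2.38, 4.92, 2.79 and 4.01 FPKM and Naive-Mac libraries 1.39, 1.37, 1.90, 1.33 and 1.25. All Resist-Mac libraries were higher, as for 36.0% of all genes between these separate batches. Krt13, the usual type I partner of Krt4, averaged 0.13 FPKM in Naive and 0.32 in Resist and was not tested.

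Among all genes, 6.35% were called in Resist vs. Naive, 5.25% higher and 1.11% lower in Resist tumors. Of the 8 keratins that passed the filter of a mean of at least 1 FPKM, Krt6a was called lower, which restates how it was chosen. Of the other 7, 1 was called, Krt4. Separate ranges, with no overlap between the 5 libraries of each group, were seen for 12.8% of genes, 8.45% with Resist above and 4.34% with Resist below, and for 0 of the 7 keratins other than Krt6a.

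**Figure D2:**
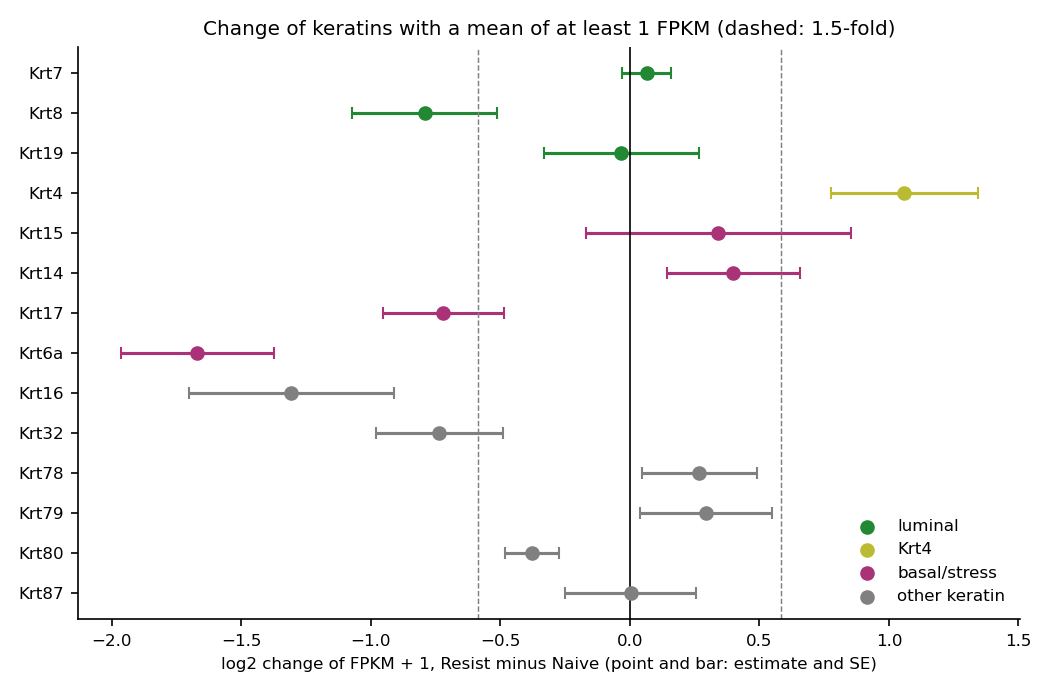
Log2 change of FPKM + 1 (x axis, Resist minus Naive, point and bar for estimate and SE) of the 14 keratins in the fit. Krt4 lies furthest to the right at 1.06 and Krt6a furthest to the left at -1.67, the latter shown as a description because it was chosen for this contrast. Dashed lines mark a fold change of 1.5.

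Krt6a, a type II stress keratin, had the highest mean of the basal and stress keratins in Naive tumors. The Naive libraries held 56.8, 81.9, 126, 81.7 and 48.5 FPKM. The Resist libraries held 13.0, 17.3, 23.3, 28.6 and 40.5 FPKM, all below the lowest Naive library. The means were 79.0 ± 30.2 and 24.5 ± 10.7 FPKM (SD, n = 5), a 3.22-fold lower level in Resist tumors and a log2 change of -1.67 (SE 0.29), which ranged from -1.87 to -1.48 when each library was left out in turn. The median percentile among genes of a library was 93.0 in Naive and 75.6 in Resist tumors.

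The macrophage-depleted tumors are also given as a description, because earlier results of these data were known when Krt6a was chosen. Resist-Mac libraries held 10.9, 15.7, 27.9, 19.96 and 19.5 FPKM, and Naive-Mac libraries 45.5, 28.7, 41.8, 63.2 and 26.6. The fifth Naive-Mac library fell just below the highest Resist-Mac library, and the other 4 lay above all of them. The means were 18.8 ± 6.28 and 41.1 ± 14.8 FPKM (SD, n = 5), a ratio of 2.19. Set against Krt7 of the same library, a ratio in which a common factor of the library cancels, Krt6a was 87.8 ± 29.1 per 1000 FPKM of Krt7 in Naive, 26.9 ± 13.0 in Resist, 19.8 ± 4.78 in Resist-Mac and 36.8 ± 8.62 in Naive-Mac tumors. On this scale Resist-Mac libraries reached from 13.6 to 25.7 and Naive-Mac libraries from 28.5 to 50.5, without overlap. In FPKM the 2 groups overlapped, while 11.9% of all genes lay with Resist-Mac below and no overlap. The share of genes apart on the Krt7 scale was not computed, and differences between tables that vary by gene do not cancel in it.

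Krt6a has a near-identical neighbour, Krt6b, which was listed at no more than 0.04 FPKM. Their coding sequences, in GENCODE vM21 transcripts of GRCm38, agree at 97.8% of 1662 aligned bases. Of 1481 windows of 150 bases, a length set here, 393 are the same in both genes (26.5%). Reads that lie wholly within such windows, with no mate outside them, cannot be assigned by sequence alone. The stretch below, coding bases 751 to 870 of both genes, is shown because it differs most, at 17 positions, and so tells the genes apart. Capitals mark the differing bases.
Krt6a: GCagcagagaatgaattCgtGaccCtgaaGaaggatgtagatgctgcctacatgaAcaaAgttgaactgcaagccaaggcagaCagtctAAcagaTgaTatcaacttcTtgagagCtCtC
Krt6b: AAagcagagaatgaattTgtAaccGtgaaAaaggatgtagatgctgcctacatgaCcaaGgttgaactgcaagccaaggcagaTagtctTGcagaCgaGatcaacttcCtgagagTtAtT
A level listed at 0 for Krt6b says how the reads were assigned in these tables, and part of the Krt6a value could come from Krt6b.

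Krt14, the type I keratin of basal cells, did not pass the test. It was 10.3, 15.6, 17.1, 21.1 and 15.5 FPKM in Naive libraries and 12.2, 14.7, 24.97, 36.9 and 23.1 in Resist libraries. Replicates 3, 4 and 5 of Resist lay above all Naive libraries, and replicates 1 and 2 lay within them. The means were 15.9 ± 3.85 and 22.4 ± 9.73 FPKM (SD, n = 5), a log2 change of 0.40 (SE 0.26, adjusted p = 0.292, limma), opposite in sign to that of Krt6a. Under depletion the order was the other way: Resist-Mac libraries ranged from 7.25 to 16.5 FPKM with a mean of 11.6 ± 3.93, and Naive-Mac libraries from 16.5 to 36.5 with a mean of 27.1 ± 7.65, touching at 16.53 FPKM.

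Krt5, the type II partner of Krt14, was listed at 0 in all Naive libraries and at 0, 0.03, 0.04, 0 and 0 FPKM in Resist libraries. It had no value in Resist-Mac tumors, where it was counted as 0 in the summed keratin levels. A single Naive-Mac library held 0.04 FPKM. Trp63, the transcription factor of basal cells, averaged 2.19 ± 0.67 FPKM in Naive and 2.10 ± 0.93 in Resist tumors (SD, n = 5).

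Krt15, a type I keratin of basal and progenitor cells, varied more between libraries of a group than between groups. Naive libraries held 49.3, 75.9, 122, 33.7 and 19.4 FPKM, a 6.30-fold range, and Resist libraries 87.1, 179, 29.4, 41.5 and 52.4, a 6.09-fold range. A single library, Resist replicate 2, was the highest in all groups. The log2 change was 0.34 (SE 0.51, adjusted p = 0.674, limma), and -0.03 without Resist replicate 2. The means were 60.0 ± 40.4 FPKM in Naive, 77.9 ± 60.6 in Resist, 60.0 ± 26.8 in Resist-Mac and 106 ± 38.5 in Naive-Mac tumors (SD, n = 5).

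Krt17, a type I stress keratin, averaged near 2 FPKM in Naive and Naive-Mac tumors and below 1 in Resist and Resist-Mac tumors. Naive libraries held 1.02, 1.79, 1.58, 2.32 and 1.98 FPKM and Resist libraries 0.33, 1.59, 1.25, 0.39 and 0.10. Replicates 1, 4 and 5 of Resist lay below all Naive libraries. The means were 1.74 ± 0.48 FPKM in Naive and 0.73 ± 0.65 in Resist tumors (SD, n = 5). Krt17 thus reached the filter of a mean of 1 FPKM through its Naive libraries. Its test values are given as a description and not as support for a fall. The log2 change of -0.72 (SE 0.23, adjusted p = 0.0501, limma) just missed the threshold. It passed with median-ratio scaling (-0.74, adjusted p = 0.0445), with quantile normalization (-0.88, adjusted p = 0.0236) and without a trend in the prior variance (adjusted p = 0.0494). It also passed without Naive replicate 1 (adjusted p = 0.0479), Resist replicate 2 (adjusted p = 0.0161) or Resist replicate 3 (adjusted p = 0.0436). The means of 0.72 ± 0.32 FPKM in Resist-Mac and 2.01 ± 0.83 in Naive-Mac tumors (SD, n = 5) stood in the same order, with overlapping libraries. Part of Krt17, 743 bases, matches Krt14 at 91.0% identity, so reads could also be split between these genes.

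Of the basal and stress keratins other than Krt6a, 3 were tested with limma and 0 were called (1, Krt17, at an unadjusted p under 0.05), with a median log2 change of 0.34 beside 0.03 for all genes. The median was -0.19 with Krt6a, which the choice of that gene sets in part. In the comparisons across tables, 0 of 7 keratins had libraries without overlap in Resist vs. Resist-Mac, where 29.7% of all genes did (12.3% with Resist above and 17.4% below), and 0 of 8 in Naive vs. Naive-Mac, where 66.0% did (40.7% with Naive above and 25.3% below). In Resist-Mac vs. Naive-Mac, 47.8% of genes did, 36.0% with Resist-Mac above and 11.9% with Resist-Mac below, and of 8 keratins Krt4 was above and Krt8 below.

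By a sum made up mainly of Krt7, luminal keratins held nearly the same share of keratin FPKM in Naive and Resist tumors. The luminal percent, the summed FPKM of the luminal keratins relative to luminal plus basal and stress keratins, was 88.8% ± 3.81 in Naive, 90.01% ± 3.63 in Resist, 92.1% ± 2.49 in Resist-Mac and 88.3% ± 2.09 in Naive-Mac tumors (SD, n = 5). Resist-Mac tumors averaged above Naive-Mac tumors by more than the SD of either group, with overlapping libraries, in separate tables and without a test. The difference of 1.19 percentage points between Resist and Naive was smaller than the SD of either group. It turned when Krt6a was left out, to 91.9% in Resist beside 94.1% in Naive tumors. It also turned when only Krt8 and Krt18 were set against Krt5 and Krt14. That share was 88.8% ± 4.54 in Resist beside 94.8% ± 2.26 in Naive tumors (SD, n = 5). This gap was larger than the SD of either group and was not tested. Without Naive replicate 3, the library with the highest Krt6a, the difference in luminal percent was -0.38.

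Within the luminal set, the ratio of Krt7 to Krt8 was higher on average in Resist than in Naive libraries, with overlap and without a test. The ratio of Krt7 to Krt8 FPKM was 2.25, 2.28, 2.86, 3.96 and 3.44 in Naive libraries and 4.31, 9.77, 6.64, 4.01 and 3.53 in Resist libraries. Of the Resist libraries, 4 lay above all Naive libraries and replicate 5 lay among them. The mean ratio was 2.96 ± 0.74 in Naive, 5.65 ± 2.60 in Resist, 8.88 ± 1.42 in Resist-Mac and 5.73 ± 1.09 in Naive-Mac tumors (SD, n = 5). Krt8 took 22.9% ± 4.29 of the FPKM of the 10 keratins in Naive, 15.0% ± 5.07 in Resist, 9.36% ± 1.20 in Resist-Mac and 13.2% ± 2.06 in Naive-Mac tumors. Krt6a took 5.69% ± 1.65, 1.98% ± 0.90, 1.61% ± 0.37 and 2.71% ± 0.53 in the same order of groups.

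**Figure D3:**
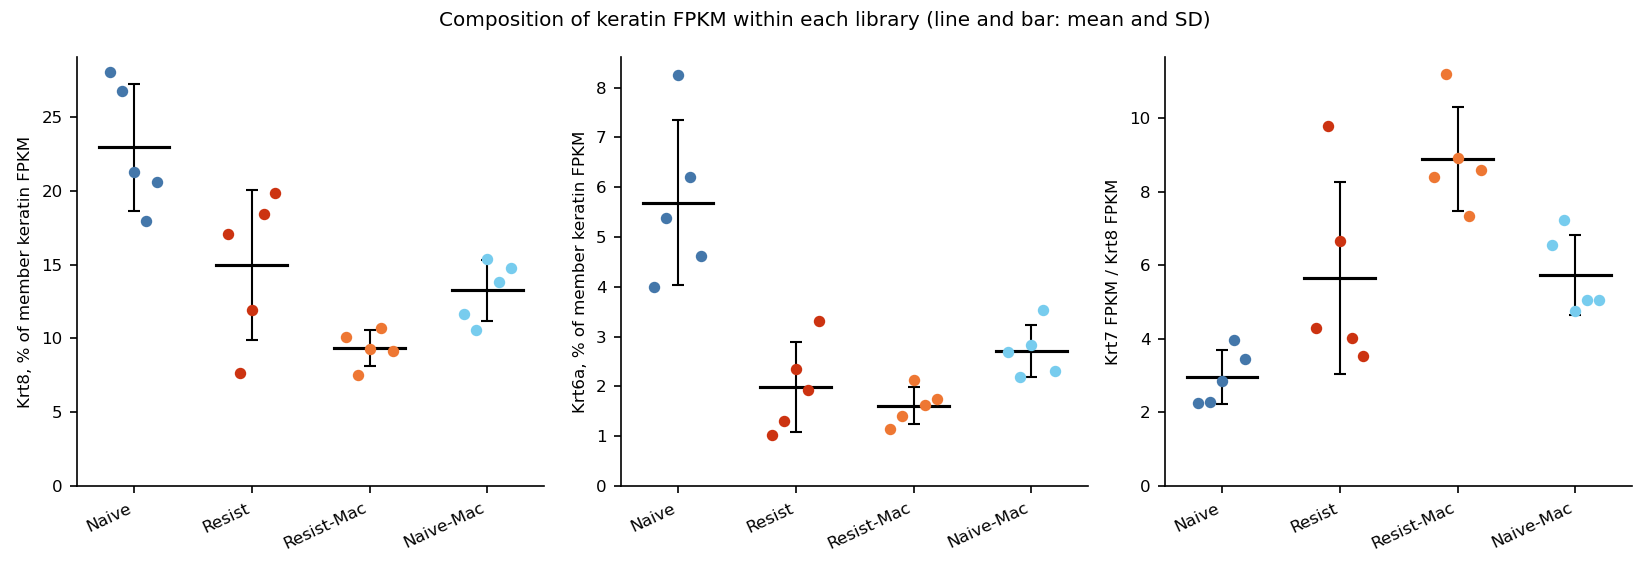
Share of Krt8 and of Krt6a in the FPKM of the 10 keratins, and the ratio of Krt7 to Krt8 FPKM (y axes, linear), for the 5 libraries of each group with the mean and SD. The mean share of Krt8 is 22.9% in Naive, 15.0% in Resist, 9.36% in Resist-Mac and 13.2% in Naive-Mac libraries. The mean Krt7 to Krt8 ratio is 2.96, 5.65, 8.88 and 5.73 in the same order of groups. Only Naive and Resist share a batch.

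As listed, the type II chains among the 10 keratins exceeded the type I chains in every library. The sums depend on genes listed near 0, Krt18 in type I and Krt5 in type II. Whether the cells hold an excess of type II transcripts cannot be told from them. The summed FPKM of Krt7, Krt8, Krt4, Krt5 and Krt6a was 1285 ± 166 in Naive and 1150 ± 166 in Resist tumors, and that of Krt18, Krt19, Krt14, Krt15 and Krt17 was 82.9 ± 41.2 and 106 ± 55.0 (SD, n = 5). The ratio was 18.0 ± 6.28 in Naive, 12.6 ± 4.43 in Resist, 15.1 ± 6.28 in Resist-Mac and 9.51 ± 1.87 in Naive-Mac tumors. With Krt18 listed near 0, Krt15 had the highest mean of the type I keratins in every group.

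Krt6a and Krt14, whose changes in Resist tumors differ in sign, were correlated from library to library over the 4 groups. After the group means of log2(FPKM + 1) were subtracted, their deviations correlated over the 20 libraries with Pearson's r = 0.72 (permutation p = 0.00161, adjusted 0.00644) and Spearman's rho = 0.74 (permutation p = 0.00136, adjusted 0.00544). Labels were permuted within groups, and 4 pairs were compared, of which 2 were added after seeing the data. Without the 2 libraries farthest from the median of Krt6a, r was 0.66 (permutation p = 0.00453, adjusted 0.0181). In the batch of Naive and Resist libraries alone, r was 0.65 over 10 libraries (permutation p = 0.0676, adjusted 0.270), so that the relation did not pass within that batch, and no value was computed for the other batches, which hold 5 libraries each. For Krt6a and the other stress keratins, r was -0.05 with Krt17 (permutation p = 0.854, adjusted 0.854, n = 20) and 0.30 with Krt16 (permutation p = 0.280, adjusted 0.468, n = 20). For Krt8 and Krt19, r was 0.21 (permutation p = 0.351, adjusted 0.468, n = 20).

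**Figure D4:**
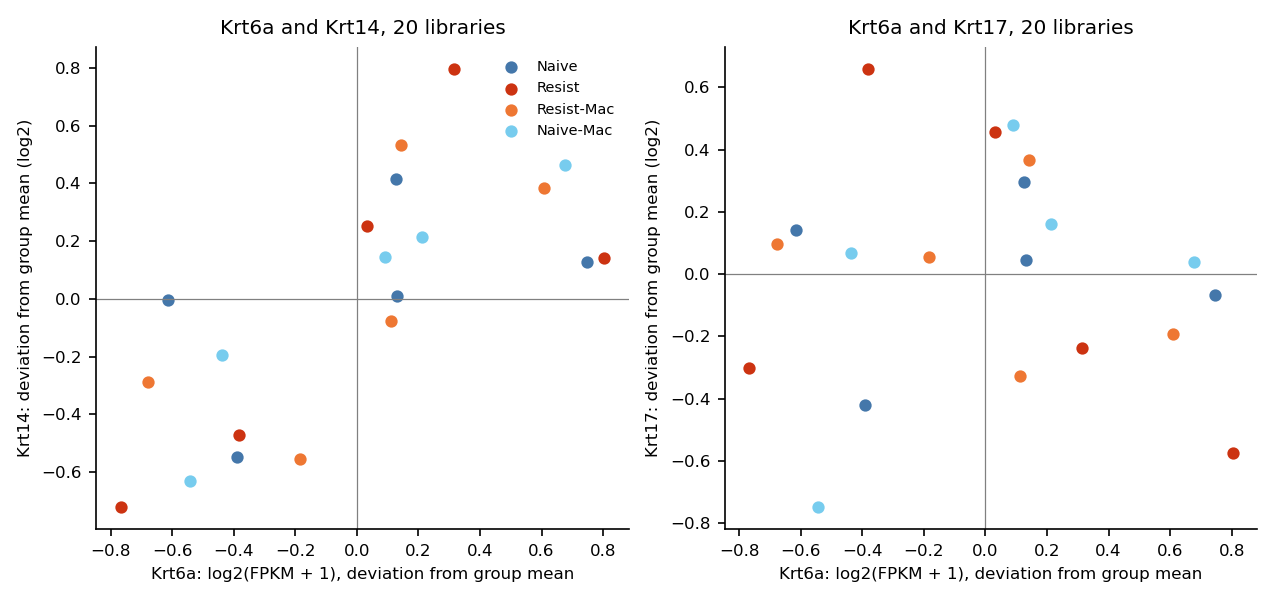
Deviations of log2(FPKM + 1) from the group mean for Krt6a (x axes) against Krt14 (left) and Krt17 (right) in the 20 libraries, colored by group. Points rise together for Krt14, with r = 0.72, and scatter without a slope for Krt17, with r = -0.05.

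By the same measure over 5896 genes that averaged 5 FPKM or more in every group, the genes most like Krt6a were Slc20a1, a phosphate transporter (r = 0.79), Krt14 (r = 0.72) and Acy1, an aminoacylase (r = 0.64). Those most like Krt8 were Ehf, an epithelial ETS transcription factor (r = 0.78), Faim2 (r = 0.73) and Sh3yl1 (r = 0.72). Those most like Krt14 were Ppp1r7 (r = 0.77), Stub1 (r = 0.75) and Napa (r = 0.74). These are descriptions over 20 libraries, chosen as the highest among many.

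Of the keratins outside the 10, 21 were listed in a table and 6 averaged 1 FPKM or more in a group. Krt16, the type I stress keratin that pairs with Krt6a, fell in Resist tumors. Naive libraries held 4.96, 6.90, 10.7, 5.29 and 5.56 FPKM and Resist libraries 0.56, 7.64, 2.87, 1.73 and 0.71. Replicate 2 of Resist lay among the Naive libraries and the other 4 lay below all of them. The log2 change was -1.31 (SE 0.40, adjusted p = 0.0382, limma), and the call was lost with no filter on low values (adjusted p = 0.0852) and without any single library other than Resist replicate 2 (adjusted p from 0.0549 to 0.0866). Krt16 averaged 0.87 ± 0.45 FPKM in Resist-Mac and 3.87 ± 2.78 in Naive-Mac tumors (SD, n = 5). All Resist-Mac libraries were below all Naive-Mac libraries, but only just, at 1.58 beside 1.61 FPKM. Of all genes, 11.9% lay apart in this direction. The pseudogene Gm11597, which was not analysed here, matches Krt16 at 97.5% over 869 bases.

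Krt80, a type II keratin of many epithelia, averaged 60.4 ± 5.51 FPKM in Naive and 46.5 ± 7.03 in Resist tumors (SD, n = 5), a log2 change of -0.38 (SE 0.10, adjusted p = 0.0251, limma) that is under the fold threshold. Krt32, a type I hair keratin, averaged 9.24 ± 2.76 and 5.29 ± 2.33 FPKM, a log2 change of -0.74 (SE 0.25, adjusted p = 0.0543, limma). The log2 changes of Krt78 and Krt79 were 0.27 (adjusted p = 0.414, limma) and 0.29 (adjusted p = 0.438). Krt87 averaged 2.16 FPKM in Naive and 2.30 in Resist but 0.01 in both Resist-Mac and Naive-Mac tumors, a difference between tables, with a log2 change of 0.00 (adjusted p = 0.994).

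Genes that work with keratins or mark the same cell states were counted in Resist vs. Naive. Of non-keratin intermediate filament genes, 5 were tested and 1 rose, Vim, the filament of mesenchymal cells, from 18.5 ± 14.3 to 93.2 ± 29.7 FPKM (SD, n = 5, log2 change 2.47, adjusted p = 0.00140, limma). The most abundant of them, Lmna, a nuclear lamin, had a log2 change of 0.29 (adjusted p = 0.0699). Of genes of desmosomes and keratin linkers, which anchor the filaments, 12 were tested with limma and 0 were called, with 5 at an unadjusted p under 0.05, beside 34.5% of all genes, and a median log2 change of 0.08. The most abundant, Perp, had a log2 change of -0.27 (adjusted p = 0.0576).

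Of distal luminal genes, 4 were tested and 1 rose, the homeobox gene Hoxb13 (log2 change 1.05, adjusted p = 6.74e-05, limma), while the most abundant, Foxa1, had a change of 0.15 (adjusted p = 0.343). Of proximal luminal genes, the state in which Krt4 and Krt7 are prominent, 6 were tested and 2 rose, Aqp5, a water channel (0.76, adjusted p = 0.00379), and Ppp1r1b (0.75, adjusted p = 0.0361, limma), with a median of 0.70 beside 0.03 for all genes. The most abundant, Psca, went from 169 ± 41.4 to 279 ± 129 FPKM (SD, n = 5) and did not pass (0.65, adjusted p = 0.0846, limma). Ppp1r1b lost its call in 7 of 18 alternatives, with adjusted p up to 0.0886.

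Of basal genes other than keratins, 9 were tested, of which 2 rose and 1 fell. Itga3 (log2 change 1.03, adjusted p = 0.00560, limma) and the hyaluronan receptor Cd44 (0.65, adjusted p = 0.00134) rose, and Itga6, an integrin of hemidesmosomes, fell (-0.79, adjusted p = 0.00287). The median was -0.08. Of squamous and stress genes other than keratins, 6 were tested and 1 rose, Ly6d, from 2.30 ± 0.89 to 9.80 ± 4.45 FPKM (SD, n = 5, log2 change 1.59, adjusted p = 0.00978, limma). The most abundant, S100a14, had a change of 0.23 (adjusted p = 0.307). Of the epithelial label genes, 6 were tested and 2 fell, the claudin Cldn4 (-0.98, adjusted p = 0.0451, limma) and the transcription factor Ovol1 (-0.74, adjusted p = 0.00619), while Cldn3 was lower by less than the fold threshold (-0.52, adjusted p = 0.00637). The call of Cldn4 was lost in 13 of 18 alternatives, with adjusted p up to 0.0996.

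Of the genes of other cells, 3 macrophage, 8 neutrophil and 3 osteoblast or stromal genes were tested with limma and 0 were called, with 0, 0 and 1 of them at an unadjusted p under 0.05, while no endothelial gene reached the filter. The median log2 changes were -0.75, -0.95 and 0.89, and the most abundant macrophage and neutrophil genes, Lyz2 and S100a8, had changes of -1.20 (SE 0.75) and -1.05 (SE 0.64). Of erythroid and B cell genes 1 was tested, Hba-a1, a hemoglobin chain, which rose (0.78, adjusted p = 0.0245, limma) and lost its call in 3 of 18 alternatives.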

How the data were processed

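The authors deposited FPKM per gene and library in 3 tables. For Naive and Resist libraries the deposited values are log2(FPKM + 1), which were turned back to FPKM, and for the macrophage-depleted groups they are plain FPKM. The submitters' processing notes name Bowtie2 and mm9. The quantification tool is not given in the sources used here. Entrez identifiers were named with RefSeq GRCm38.p6, which matched 16613 of 17485, 14053 of 14077 and 15827 of 15867. BGI_novel genes, 8.43% of the FPKM of the first table, were removed.

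Genes averaging 1 FPKM or more in the 10 libraries entered limma 3.58.1 (R 4.3.3), fitted with a pseudocount of 1 and a trend in the prior variance. The members and gene lists were chosen with earlier results of these data known. Named genes were the 10 keratins, other keratins at 1 FPKM or more in a group, up to 4 called genes and the most abundant gene of each list, and the 3 genes most like Krt6a, Krt8 and Krt14. Rpl3, Cldn7, Cdh1, Epcam, Esrp1, Krt13 and Trp63 were named after their values were seen. Lists were luminal, basal and stress, other type I and other type II keratins, other intermediate filaments, desmosomes and linkers, distal and proximal luminal, basal, squamous and stress, and epithelial genes, and markers of macrophages, neutrophils, osteoblasts and stroma, endothelium, and erythroid and B cells.

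Correlations used 100000 permutations within groups. The 4 planned pairs with Krt5 or Krt18 were not computed, because these were at or near 0. Close copies at an identity of at least 90% were found with minimap2 2.31-r1302 in GENCODE vM21 transcripts. The procedures were tested on simulated data. Alternatives were a pseudocount of 0.1, no filter, a mean of at least 5 FPKM, a fold change over 2, median-ratio scaling, quantile normalization, no trend, a replicate block, leaving out each replicate and, added after seeing the data, a correction for length and GC content. Python 3.11.15, numpy 2.4.6, pandas 2.3.3, scipy 1.17.1 and matplotlib 3.10.9 were used.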

Additional observations from a re-analysis of the deposited data

Results flagged for a closer look

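In 3 of 32 sets of 5 libraries, 1 keratin value lay far from the other 4, where chance gives about 1.6. Krt19 was 19.52 FPKM in Resist-Mac replicate 4, above 3.36 to 7.89 in the other 4. Krt7 was 744.58 FPKM in Naive replicate 5, below the other Naive libraries. Krt4 was 1.90 FPKM in Naive-Mac replicate 3, above 1.25 to 1.39 in the other 4.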

How the results depend on the processing

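The 643 genes called in Resist vs. Naive became 219 at a fold change over 2, 392 with a mean of at least 5 FPKM, where fewer genes were tested, and 527 to 840 when each library was left out, with 840 without Resist replicate 5. The called keratins were 2, Krt4 and Krt6a, but 1 with no filter, 1 with a mean of at least 5 FPKM, where Krt4 was not tested, and 1 to 3 when each library was left out. They were 3 with median-ratio scaling and 3 without a trend, where Krt17 was added, and under quantile normalization the 2 were Krt17 and Krt6a. Quantile normalization gave 381 higher and 167 lower genes beside 531 and 112, and moved the median of all genes from 0.03 to -0.03. The difference in luminal percent was -2.29 without Krt6a, -6.01 for Krt8 and Krt18 against Krt5 and Krt14, and -0.38 to 2.77 when each library was left out. The log2 change of Krt19 ranged from -0.21 to 0.15 and that of Krt15 from -0.030 to 0.66 when each library was left out. That of Krt87 was -0.037 with a pseudocount of 0.1, -0.027 with median-ratio scaling, -0.16 with quantile normalization, -0.033 with the length and GC correction, and -0.19 to 0.21 when each library was left out. The Krt6a and Krt14 correlation was 0.65 (permutation adjusted p = 0.270) in Naive and Resist libraries alone. The causes were not tested. Of 142 alternative values for the log2 changes of keratins among the 10, 124 kept direction and call. This count is a description, because it includes 18 values of Krt6a, whose call restates how it was chosen. Among the other keratins of the 10 only Krt4 was called, and it lost its call in 5 of 17 alternatives. Same-numbered Naive and Resist libraries did not deviate together (correlations from -0.16 to -0.03), so the numbers do not pair them, and with a replicate block 624 genes and 2 keratins were called. The length and GC correction, added after seeing the data, gave 619 genes and 2 keratins. Read depth is unknown, so no counting error could be given for low keratins such as Krt17 and Krt4.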
